A study of Mus musculus with 2 samples.

Results

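The microRNAs (miRNAs) of the miR-17-92 and miR-106b-25 clusters were read in small RNA libraries of the mouse adrenal gland. The genes were taken by name, not by level: all 9 that GENCODE M21 places in these clusters were found among the 2202 miRNA genes of each table. They were Mir17, Mir18, Mir19a, Mir20a, Mir19b-1 and Mir92-1 of the miR-17-92 cluster, and Mir106b, Mir93 and Mir25 of the miR-106b-25 cluster. The libraries came from whole adrenal glands of adult female mice, labelled 5xFAD/CAST and 8 to 10 months old. 5xFAD mice carry transgenes under the neuronal Thy1 promoter and serve as an Alzheimer's disease model. CAST, their cross partner by name, goes back to wild mice of the castaneus subspecies. The labels do not say which animals carried the transgenes, and the series has 1 group. The 2 libraries are called biological replicates 1 and 2 and have separate biosamples under 1 donor identifier. Nothing states that they are different animals, and SDs measure the spread between these samples, which may be technical.

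Both clusters are transcribed as long RNAs from which several hairpins are cut, and each hairpin gives a miRNA of its own. A miRNA recognises target mRNAs mainly through its seed, bases 2 to 8 from the 5′ end, so miRNAs with the same seed share many targets. The clusters are best known from dividing cells: the transcription factors Myc and E2F raise them, and their miRNAs repress brakes on the cell cycle and on survival such as Cdkn1a and Bcl2l11. The miR-17-92 cluster lies in Mir17hg, a noncoding host gene, while the miR-106b-25 cluster lies inside Mcm7, which encodes a subunit of the helicase that opens DNA for replication. Mice without the miR-17-92 cluster die at birth with small lungs and heart defects.

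The 9 hairpins give miRNAs with 4 different seeds. The sequences below are the arms usually taken as the active strand, from RefSeq on GRCm38.p6, which is the mm10 build of the tables. They are shown because the seeds decide how the reads are grouped, and because a few bases decide which gene a read can be assigned to. Capitals mark the seed.
Mir17 (miR-17-5p): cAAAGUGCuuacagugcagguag
Mir20a (miR-20a-5p): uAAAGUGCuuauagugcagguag
Mir93 (miR-93-5p): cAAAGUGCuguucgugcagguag
Mir106b (miR-106b-5p): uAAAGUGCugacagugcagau
Mir18 (miR-18a-5p): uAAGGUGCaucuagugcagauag
Mir19a (miR-19a-3p): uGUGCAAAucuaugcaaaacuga
Mir19b-1 (miR-19b-3p): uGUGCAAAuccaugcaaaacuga
Mir92-1 (miR-92a-3p): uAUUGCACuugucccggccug
Mir25 (miR-25-3p): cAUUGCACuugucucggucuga
The first 4 share the miR-17 seed, Mir18 has the miR-18 seed, Mir19a and Mir19b-1 share the miR-19 seed, and Mir92-1 and Mir25 share the miR-92 seed. Positions are counted from 1 at the 5′ end, with the base of the first-named miRNA first. Mir17 and Mir20a differ by C1U and C12U, Mir19a and Mir19b-1 by U11C alone, and Mir92-1 and Mir25 by U1C, C14U and C18U over their first 21 bases. The arms shown are 21 to 23 bases long, so read counts were compared between genes without scaling to length. Whether different miRNA sequences turn into reads equally well was not tested. Ratios and shares between genes are therefore of reads, and counting intervals do not cover such a difference. Scaled to 100 bases of annotated gene, the order of the 9 genes by mean level was the same, from Mir93 to Mir19a.

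Some of these miRNAs have copies elsewhere, and the tables did not assign reads with several genomic matches to any gene. Such multimapping reads made up 31.6% (replicate 1) and 33.6% (replicate 2) of each library. In a search of the 2202 annotated miRNA hairpins, the full sequences of miR-19b and miR-92a each recurred in 1 other gene, Mir19b-2 and Mir92-2 of the X chromosome. The other 7 members had no identical copy among those genes, and the rest of the genome was not searched. The lines below give the mature sequence with the 4 bases that follow it in the hairpin, with the first base after the mature end in capitals.
Mir92-1, chromosome 14: uauugcacuugucccggccugUuga
Mir92-2, chromosome X: uauugcacuugucccggccugAgga
Mir19b-1, chromosome 14: ugugcaaauccaugcaaaacugaCugu
Mir19b-2, chromosome X: ugugcaaauccaugcaaaacugaUugu
The copies differ at the first base after the mature end, so a read that lies within the mature sequence matches both genes. Counts of Mir92-1 and Mir19b-1 are therefore uncertain and may be low.

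In mm10, the 6 hairpins of miR-17-92 lie within 836 bases of chromosome 14, from 115043671 to 115044506 on the plus strand, inside an exon of the 1 annotated transcript of Mir17hg. The 3 hairpins of miR-106b-25 lie within 498 bases of chromosome 5, from 138165321 to 138165818 on the minus strand. They lie in an intron in 2 of the 10 annotated transcripts of Mcm7, and Mir93 and Mir25 also overlap an exon of 1 other short transcript. No member overlaps another miRNA gene on either strand. The members had the same counts in the column of both strands as in the column of 1 strand that is used here, and 0 reads in the column of the opposite strand.

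Reads on miRNA genes numbered 3635851 in replicate 1 and 6924829 in replicate 2, and levels are given as counts per 1000000 of these reads (CPM). A gene with at least 10 reads in each library was called detected, which 356 genes were. A count of 0, taken as at most 3 counts, allows up to 0.825 CPM in replicate 1 and 0.433 CPM in replicate 2. Endocrine cell miRNAs, with Mir375 among them, were high at 50599 and 48308 CPM summed over 3 genes. The endothelial Mir126a was at 56684 and 41532 CPM, and the smooth muscle genes Mir143 and Mir145a together at 23925 and 21489 CPM. The 4 leukocyte genes summed to 1147 and 854 CPM. Of the markers of other organs, liver Mir122 was at 78.1 and 108 CPM, and the kidney and intestine genes summed to 57.2 and 34.1 CPM. None of 6 neuronal and 2 pancreatic genes was detected, and 1 of 7 striated muscle genes was. Of these lists, 4 striated muscle and 4 neuronal genes had no read. By name each of these, and each other neuronal gene listed, is a numbered copy, and copies can prevent assignment. The zeros and the undetected neuronal list thus do not show absence.

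The miR-17 seed group led the 2 clusters. Mir93, the middle hairpin of the Mcm7 cluster, had 8114 reads in replicate 1 and 12528 in replicate 2, or 2232 and 1809 CPM. Its mean of 2020 ± 299 CPM (SD, n = 2) was the highest of the 9 members and placed it at rank 48 of the 356 detected genes. Mir17, the first hairpin of the chromosome 14 cluster, had 5098 and 8236 reads, or 1402 and 1189 CPM, with a mean of 1296 ± 150 CPM at rank 65. Mir93 stood above Mir17 in both libraries, by 1.59-fold in replicate 1 (95% counting interval 1.54 to 1.65) and 1.52-fold in replicate 2 (1.48 to 1.56).

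Mir106b and Mir20a, the other carriers of the miR-17 seed, stood together below them. Mir106b had 2711 and 3663 reads, or 746 and 529 CPM, and Mir20a had 2614 and 3531 reads, or 719 and 510 CPM. Their means of 637 ± 153 CPM and 614 ± 148 CPM gave ranks 97 and 99. The ratio of Mir106b to Mir20a was 1.04 in both libraries, and each counting interval (0.982 to 1.09 and 0.990 to 1.09) includes equality. These neighbours in the order of levels thus did not differ beyond counting error, although they come from different chromosomes.

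The miR-92 seed group came next and was uneven. Mir92-1, the last hairpin of the chromosome 14 cluster, had 3715 and 4705 reads, or 1022 and 679 CPM, with a mean of 851 ± 242 CPM at rank 84. Mir25, the last hairpin of the Mcm7 cluster, had 626 and 988 reads, or 172 and 143 CPM, with a mean of 157 ± 20.9 CPM at rank 157. Mir92-1 was 5.93-fold above Mir25 in replicate 1 (95% counting interval 5.45 to 6.47) and 4.76-fold in replicate 2 (4.45 to 5.11). Mir92-1 shares its mature sequence with Mir92-2, and Mir25 has no such copy, so this ratio counts only reads that could be assigned to Mir92-1. Those reads may come from either arm of the hairpin, so the ratio is not one of miR-92a to miR-25.

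Mir18 was the lowest of the detected members, and the miR-19 genes were nearly without reads. Mir18 had 254 and 435 reads, or 69.9 and 62.8 CPM, with a mean of 66.3 ± 4.98 CPM at rank 200. Mir19b-1 had 9 and 8 reads, or 2.48 CPM (95% counting interval 1.13 to 4.70) and 1.16 CPM (0.499 to 2.28). Mir19a had 1 and 5 reads, or 0.275 CPM (0.00696 to 1.53) and 0.722 CPM (0.234 to 1.69). Neither reached 10 reads in a library, so 7 of the 9 members were detected. For Mir19b-1 the identical copy on the X chromosome can hold reads back from the count. For Mir19a no annotated miRNA gene holds the full mature sequence, and the cause of its low count was not tested.

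**Figure D1:**
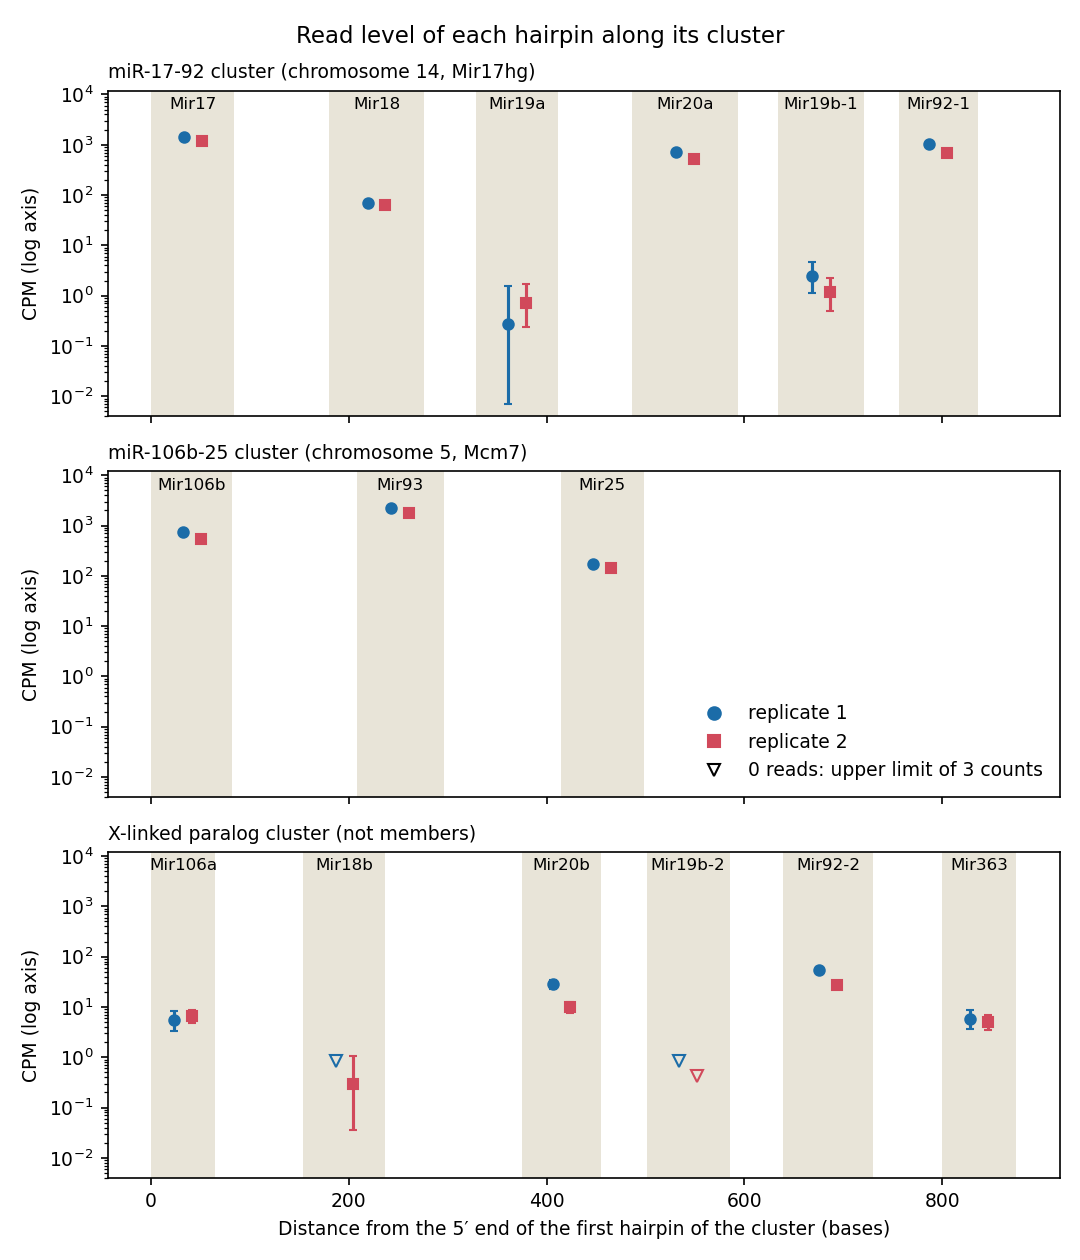
Level of each hairpin (CPM, log axis) against its distance in bases from the first hairpin of its cluster, with circles for replicate 1, squares for replicate 2, bars for 95% counting intervals and shaded spans for the hairpins. Mir19a and Mir19b-1 lie below 3 CPM between neighbours at 62.8 to 1022 CPM, and every gene of the X-linked cluster lies below 54 CPM.

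Level did not follow the order of the hairpins along the transcript. From 5′ to 3′, mean levels on chromosome 14 were 1296 CPM for Mir17, 66.3 for Mir18, 0.499 for Mir19a, 614 for Mir20a, 1.82 for Mir19b-1 and 851 for Mir92-1. The hairpins with the highest and the lowest level thus start 329 bases apart on 1 transcript. The ratio of Mir17 to Mir19a rests on 1 read of Mir19a in replicate 1, where it was 5098 with a counting interval of 915 to 201399. In replicate 2 it was 1647 (706 to 5074). Among the detected members of the cluster, Mir17 exceeded Mir18 by 20.1-fold in replicate 1 and 18.9-fold in replicate 2. In the Mcm7 cluster the range was smaller, with Mir93 over Mir25 at 13.0-fold and 12.7-fold, and Mir93 over its upstream neighbour Mir106b at 2.99-fold and 3.42-fold. Counts join both arms of a hairpin, so the arms cannot be told apart here.

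The rank neighbours of the leading members show the level they share. Mir93 stood between Mir140 at 2021 ± 1227 CPM and Mir31 at 2007 ± 1520 CPM. Mir17 stood between Mir29c at 1308 ± 46.0 CPM and Mir134 at 1272 ± 15.4 CPM. Mir140 and Mir31 were higher in replicate 2, at 2889 against 1154 CPM and 3081 against 932 CPM, whereas Mir93 was lower there. Over 2 libraries, likeness in mean level says nothing of a shared pattern.

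Summed over their hairpins, the clusters had nearly the same level of assigned reads. The 6 genes of miR-17-92 had 11691 reads in replicate 1 and 16920 in replicate 2, or 3215 and 2443 CPM, and the 3 genes of miR-106b-25 had 11451 and 17179 reads, or 3149 and 2481 CPM. The ratio of the former to the latter was 1.02 in replicate 1 (95% counting interval 0.995 to 1.05) and 0.985 in replicate 2 (0.964 to 1.01), with a mean of 1.00 ± 0.0255 (SD, n = 2). The values lie on either side of 1, and with 2 libraries no exact permutation test over samples can reach a p of 0.05. The sum includes Mir92-1 and Mir19b-1, which have copies on the X chromosome. Without them the mean ratio was 0.703 ± 0.0105, so the equality of the sums holds only for reads as they were assigned. Any reads of these genes held back as multimapping would raise the ratio instead, by an amount that is not known. As these are bulk libraries, fewer cells of a type and less RNA per cell cannot be told apart.

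The seed groups took very unequal parts of the 9 members' reads. Counts join both arms, and each gene's whole count was placed in the group of the arm shown above. The shares are thus of reads on genes, not of reads that carry a seed. The miR-17 seed group held 80.1% in replicate 1 and 82.0% in replicate 2, with 95% intervals (exact, Clopper-Pearson) of 79.6 to 80.6% and 81.6 to 82.4%. The miR-92 seed group held 18.8% (18.3 to 19.3%) and 16.7% (16.3 to 17.1%). The miR-18 seed group held 1.10% (0.967 to 1.24%) and 1.28% (1.16 to 1.40%), and the miR-19 seed group 0.0432% (0.0207 to 0.0795%) and 0.0381% (0.0203 to 0.0652%). The order of the groups was the same in both libraries. For the miR-17 and miR-92 groups the intervals of the libraries do not overlap, but they cover counting error only. Leaving out Mir19b-1 and Mir92-1, the mean share of the miR-17 group was 95.3% in place of 81.0%, and that of the miR-92 group 3.29% in place of 17.7%. Any reads of these genes held back as multimapping would move the shares the other way, so these values do not bound that effect.

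In both clusters most reads fell on genes of the miR-17 seed group. The clusters differed in the part on genes of the miR-92 seed group. Of all reads on member genes of the miR-17 seed group, the chromosome 14 genes gave 41.6% in replicate 1 and 42.1% in replicate 2. Mir93 and Mir106b of the Mcm7 cluster gave the remainder. Of those on member genes of the miR-92 seed group, the chromosome 14 gene Mir92-1 gave 85.6% and 82.6%. Within miR-106b-25, the genes of the miR-17 seed group took 94.5% and 94.2% of reads and Mir25 5.47% and 5.75%. Within miR-17-92, Mir17 took 43.6% and 48.7%, Mir20a 22.4% and 20.9%, Mir92-1 31.8% and 27.8%, and Mir18 2.17% and 2.57%. The make-up of both clusters thus differed by a few percentage points between the libraries. In the Mcm7 cluster, Mir93 took 70.9% in replicate 1 and 72.9% in replicate 2, and Mir106b 23.7% and 21.3%. In the chromosome 14 cluster the share of Mir17 was higher and that of Mir92-1 lower in replicate 2.

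**Figure D2:**
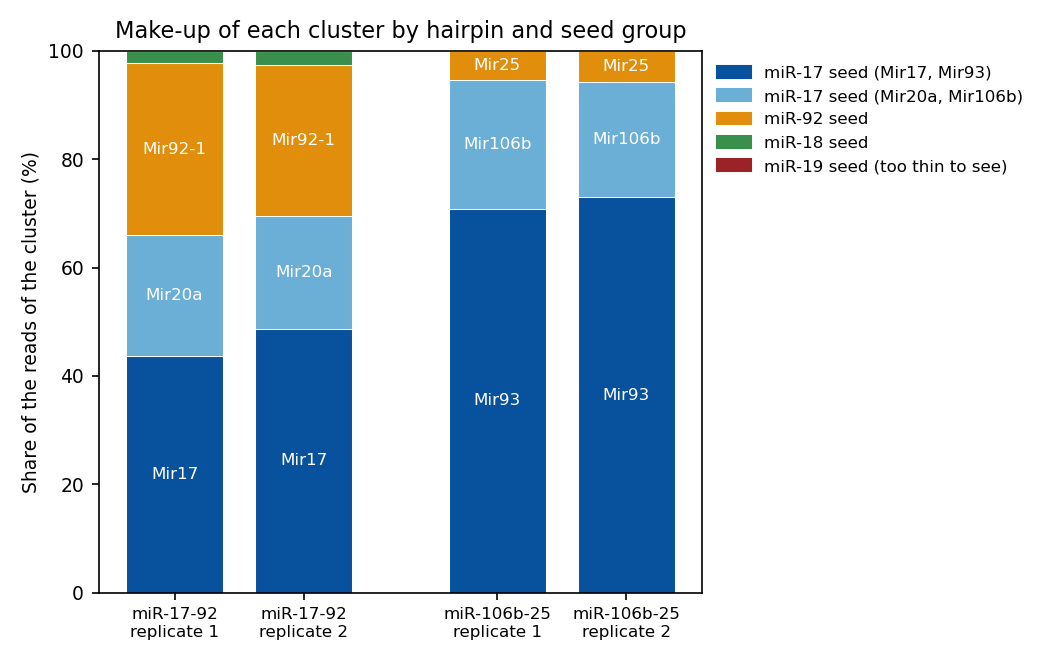
Share of the reads of each cluster (%) taken by each hairpin in each library, coloured by seed group. Mir93 takes 70.9% and 72.9% of its cluster, Mir17 43.6% and 48.7% of its own, and the miR-19 genes are too few to be seen.

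The other genes of the mouse with these seeds added little to the miR-17 group and more to the miR-92 group. The X chromosome carries a paralog of miR-17-92 with 6 hairpins, which summed to 340 reads in replicate 1 and 342 in replicate 2, or 93.5 and 49.4 CPM. The chromosome 14 cluster was thus 34.4-fold and 49.5-fold above it in assigned reads. Reads that match both Mir92-1 and Mir92-2, or both Mir19b-1 and Mir19b-2, are in neither sum. Mir106a, which differs from Mir17 by U10A, was at 5.50 and 6.50 CPM, and Mir20b, which differs from Mir20a by U1C and U10C, was at 28.3 and 9.82 CPM. Mir18b had 0 and 2 reads and Mir19b-2 had none. Mir92-2 was at 53.9 and 27.7 CPM, and Mir92-1 took 3715 of 3911 reads assigned to either gene in replicate 1 (94.3 to 95.7%, exact interval) and 4705 of 4897 in replicate 2 (95.5 to 96.6%). Mir363, at the end of the X-linked cluster, was at 5.78 and 5.05 CPM.

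**Figure D3:**
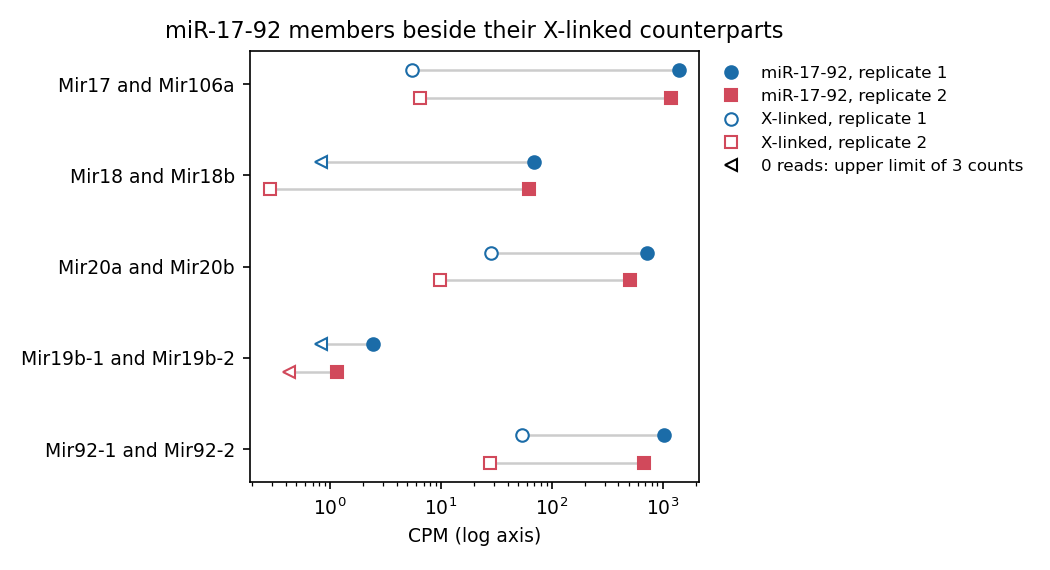
CPM (log axis) of 5 miR-17-92 members, in filled symbols, and of their X-linked counterparts, in open symbols, with circles for replicate 1 and squares for replicate 2. Each member lies to the right of its counterpart in both libraries, and triangles stand at the upper limit of genes with 0 reads.

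Outside the clusters, Mir92b and Mir32 of the miR-92 seed group were at 50.0 ± 1.66 and 47.5 ± 13.4 CPM, and Mir367 had no read in either library. Mir6383, added after the values were seen because its mature sequence has the miR-17 seed, had no read either. The members held 99.3% and 99.6% of the reads on the listed genes with the miR-17 seed, and 87.7% and 87.3% of those with the miR-92 seed.

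Most members were slightly lower in replicate 2. Their summed level was 6365 CPM in replicate 1 and 4924 CPM in replicate 2, or 0.636% and 0.492% of miRNA-gene reads. With p-values adjusted over all 356 detected genes (Benjamini-Hochberg), a two-sided Fisher's exact test called 6 of the 7 detected members lower in replicate 2 and Mir18 not, where 44.4% of all detected genes were called lower and 65.7% were called in either direction. Log2 ratios of replicate 2 to replicate 1 ran from -0.59 for Mir92-1 to -0.15 for Mir18 (exact 95% counting interval -0.38 to 0.08). Mir20a and Mir106b both had -0.50, Mir93 -0.30, Mir25 -0.27 and Mir17 -0.24. One member, Mir92-1, reached a 1.5-fold difference, against 36.0% of all detected genes. Its fold of 1.504 was just past that limit and rests only on reads that could be assigned to it.

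The members' ratios lay between the quartiles of the whole profile, with a lower median. The median over the 356 detected genes was -0.19, with quartiles at -0.62 and 0.17, and 63.8% of the genes had a ratio below 0. The median of the 7 members was -0.30. Relative to the median of all genes, the members stood between -0.40 for Mir92-1 and 0.03 for Mir18. TMM scaling (the trimmed mean of log ratios in edgeR), which shifts each log2 ratio by 0.14, left all 7 members below 0, with 5 called by an exact binomial test. DESeq2 size factors, which shift it by 0.19, left 6 below 0, with 4 called, and moved Mir18 to 0.03. Over all 356 detected genes, the binomial test called 230 under TMM and 229 under DESeq2 size factors, in either direction. Under either scaling 0 of the 7 detected members reached 1.5-fold, against 114 (TMM) and 116 (DESeq2) of the 356 genes. Fisher's test compares these libraries and allows for counting error only. When edgeR's exact test was given the common dispersion of the same libraries, 0 of the 7 members and 5 of the 356 genes were called. An unadjusted p under 0.05 was reached by 0 of the members and 19 of the 356 genes. That dispersion was estimated from the difference between these libraries, so the test cannot decide whether the members differ.

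**Figure D4:**
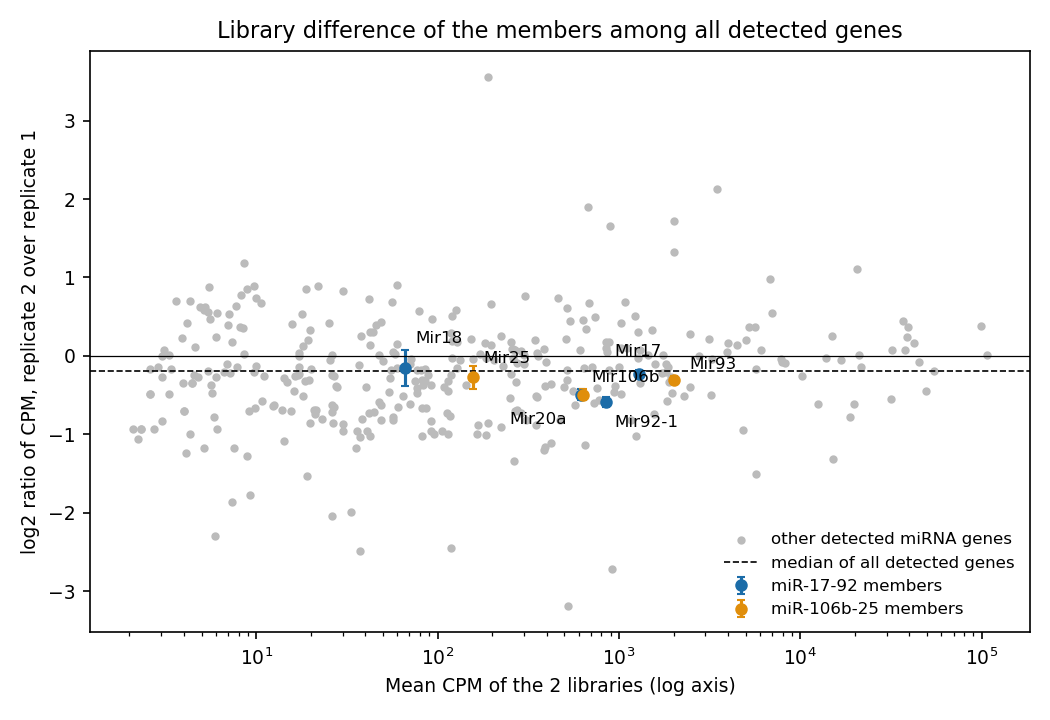
Log2 ratio of CPM in replicate 2 over replicate 1 against mean CPM (log axis) for the 356 detected genes, with members in colour, bars for 95% counting intervals and a dashed line at the median of -0.19. The 7 detected members lie between -0.59 and -0.15, within the spread of the grey points.

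Markers of blood and vessel cells were also lower in replicate 2, as were 63.8% of all detected genes. All 4 leukocyte genes (Mir142, Mir150, Mir155 and Mir223) were detected and their sum was 1147 CPM in replicate 1 and 854 in replicate 2. Both red cell genes were detected, at 427 and 175 CPM together, and Mir126a of endothelium was at 56684 and 41532 CPM. No gene of these 3 lists was at 0. The sums of the smooth muscle, endocrine, striated muscle, and kidney and intestine lists were lower in replicate 2 too. Liver Mir122 and the undetected pancreatic and neuronal lists were higher. The part of any of these cell types in the members' levels was not tested.

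Among the detected X-linked and other same-seed genes, the library ratios spread more widely than among the detected members. The undetected members Mir19a (1 and 5 reads) and Mir19b-1 (9 and 8 reads) stood at 1.39 and -1.10. Mir20b had 103 and 68 reads, a log2 ratio of -1.53 (95% counting interval -1.99 to -1.07), and Mir92-2 had 196 and 192 reads, a ratio of -0.96 (-1.25 to -0.66). Mir32 stood at -0.58 and Mir92b at -0.07. Mir106a, with 20 and 45 reads, stood at 0.24 (-0.55 to 1.08). A difference in spread between the same-seed genes and the detected members was not tested. The counts behind Mir106a and the miR-19 genes are few.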

How the data were processed

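Small RNA of the adrenal gland was sequenced as 2 libraries of 1 group. Each library has a deposited table of raw counts in 3 unnamed columns for 2202 miRNA genes, made by the authors on mm10 with GENCODE M21, per the notes beside the tables. The sources used here do not give the aligner or the counter. From the values, the first column was taken as reads of both strands and the next, used here, as reads of 1 strand. The first column has the smaller gene total because reads it sets aside as ambiguous are given to genes in the single-strand columns. Rows without a gene were not counted in totals. In replicates 1 and 2, unmapped reads were 16.1% and 16.5%, and multimapping reads 31.6% and 33.6%.

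CPM are counts scaled to the sum over miRNA genes. Read counts have exact Poisson intervals, and shares and ratios exact binomial ones, at 95%. No molecular identifiers separate PCR copies, so intervals and floors cover counting error only. Detected genes (at least 10 reads in each library) were tested by Fisher's exact test with Benjamini-Hochberg adjustment at 0.05. The procedure was also run on simulated counts. For Fisher's test these held counting error only, so that run does not cover other differences between libraries. Where totals were rescaled, an exact binomial test took the place of Fisher's test. All identifiers matched GENCODE M21, and sequences of all 9 members were found in the RefSeq table. Genes named are the members, listed genes with the same seeds, listed markers of other cell types and tissues, and detected non-members next in level to the leading member of each cluster. Members and lists were chosen with earlier results of these data known. Alternatives were the both-strand column, TMM (edgeR 4.0.16) and DESeq2 1.42.0 size factors, all reads as the total, detection limits of 1 and 100 reads, a 2-fold limit, edgeR's exact test, leaving out each library or the members with copies, and, chosen after seeing the data, the binomial test with unscaled totals and scaling to gene length. R 4.3.3, Python 3.11.15, scipy 1.17.1, pandas 2.3.3, numpy 2.4.6 and matplotlib 3.10.9 were used.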

Additional observations from a re-analysis of the deposited data

How the results depend on the processing

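The order of the members and their seed groups was the same in both libraries. Leaving out replicate 1 or replicate 2 gave summed member levels of 4924 to 6365 CPM and cluster ratios of 0.985 to 1.02. The share of the miR-17 seed group was then 80.1 to 82.0%. Leaving out Mir19b-1 and Mir92-1 moved the cluster ratio to 0.703, since fewer genes were counted. It moved the shares of the miR-17, miR-18, miR-19 and miR-92 seed groups to 95.3%, 1.39%, 0.0111% and 3.29%. With all reads of the library as the total, the summed level was 2596 CPM, because the total is larger. Of the 7 detected members 0 passed 1.5-fold under TMM or DESeq2 size factors, 0 passed 2-fold, and 3 of 9 passed 1.5-fold with a minimum of 1 read, the additional 2 being the miR-19 genes. Over all genes, 290 passed 1.5-fold at that minimum and 79 at a minimum of 100 reads, against 128, and 38 passed 2-fold. Under TMM 114 genes passed 1.5-fold, and under DESeq2 size factors 116. By edgeR's exact test 0 members and 5 genes in all were called, against 6 and 234 by Fisher's exact test. The edgeR test took its dispersion from the libraries it compared, so it cannot decide whether the members differ. Under DESeq2 size factors the log2 ratio of Mir18 turned to 0.0345, and Mir17 (adjusted p = 0.0817) and Mir25 (adjusted p = 0.321) were no longer called by the exact binomial test used with scaled totals. With unscaled totals that test, added after seeing the data, called 6 members, as Fisher's test did. With TMM, Mir25 was not called (adjusted p = 0.121). Per 100 bases of gene, the log2 range of the Mcm7 cluster was 3.61 against 3.68. The both-strand column gave the members the same reads and, its total being smaller, higher CPM. No paired analysis was possible because there is 1 group. Ratios between the libraries cannot be computed without either of them. Counts are few for Mir19a, Mir19b-1 and the X-linked genes with under 50 reads, and the cause was not tested.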
